A study of Mus musculus with 8 samples.

Results

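The genes described here drive or mark DNA replication and cell division. They are 39 mouse genes, chosen by name, whose probes were found through the RefSeq accession that the array design gives each probe. Of them, 17 act in or just before S phase and 22 act in G2 and mitosis, among 20660 genes with a symbol and a probe on the array. The S-phase genes had 19 probes and the mitotic genes 32, and the probe with the highest mean over all arrays stood for each gene. In all, 36 of the 39 genes could be tested, 16 of S phase and 20 of mitosis.

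RNA was measured on 8 single-colour Agilent arrays of 1 slide, from neurospheres, which are floating balls of dividing neural stem and progenitor cells. Per the labels the spheres were grown from the ganglionic eminence of E14.5 mouse embryos, each sample from a single brain, for 7 days with the growth factors EGF and bFGF, and RNA was taken after repeated passage. The groups were wild-type floating (WT floating, 3 arrays), floating with a knockout of Cbx3, which encodes the chromatin protein HP1gamma (KO floating, 3 arrays), and the same knockout in adherent culture (KO adherent, 2 arrays). The labels describe low-attachment plates for every sample and do not say how the adherent culture differed or how Cbx3 was disrupted. No adherent wild-type array was analysed here. Levels below are the log2 processed signal minus the array's 75th percentile, so a level of 0 is that percentile, and a difference of 1 is a doubling.

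Cells enter S phase when E2F transcription factors, freed from retinoblastoma proteins, switch on genes for origin licensing, the replication fork and deoxynucleotide synthesis. The DREAM complex holds genes of the later wave silent in resting and G1 cells, and MuvB with B-Myb and FOXM1 then switches on cyclins A and B, mitotic kinases, spindle motors and the spindle checkpoint. In neurospheres, which grow by division of their progenitors, both waves are read as a measure of cycling cells. In RNA from whole cultures, fewer cycling cells and less RNA per cycling cell cannot be told apart.

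Promoters of both waves carry known motifs, and those of 5 genes that the results return to are given here. Each line is the 150 bases before the annotated start, 5′ to 3′ on the gene's strand, from RefSeq on GRCm38.p6. Capitals mark matches on either strand to TTTNNCGC (an E2F motif), TTTGAA (the cell cycle homology region bound by MuvB) and CCAAT (bound by NF-Y). E2f1 lies at chr2:154569427-154569576 (minus strand), Mcm6 at chr1:128359706-128359855 (minus), Cdk1 at chr10:69352913-69353062 (minus), Cdc20 at chr4:118437344-118437493 (minus) and Ube2c at chr2:164769779-164769928 (plus).
E2f1: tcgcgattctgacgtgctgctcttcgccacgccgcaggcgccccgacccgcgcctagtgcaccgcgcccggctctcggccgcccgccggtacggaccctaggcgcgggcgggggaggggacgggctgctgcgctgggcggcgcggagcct
Mcm6: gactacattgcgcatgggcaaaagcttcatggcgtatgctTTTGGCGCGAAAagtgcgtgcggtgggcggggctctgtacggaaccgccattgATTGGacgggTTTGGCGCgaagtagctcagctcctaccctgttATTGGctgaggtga
Cdk1: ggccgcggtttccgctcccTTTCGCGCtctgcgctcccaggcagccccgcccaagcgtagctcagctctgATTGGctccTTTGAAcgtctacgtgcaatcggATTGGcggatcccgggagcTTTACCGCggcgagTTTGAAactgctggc
Cdc20: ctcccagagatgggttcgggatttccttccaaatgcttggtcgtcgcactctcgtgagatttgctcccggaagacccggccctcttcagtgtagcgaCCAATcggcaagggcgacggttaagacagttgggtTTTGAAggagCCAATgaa
Ube2c: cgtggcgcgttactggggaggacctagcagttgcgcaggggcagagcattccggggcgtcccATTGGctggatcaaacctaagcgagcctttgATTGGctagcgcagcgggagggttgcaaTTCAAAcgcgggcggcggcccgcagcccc

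E2f1 was shown because it was the member that passed the test in a comparison below. The 250 bases before its annotated start held none of these letters. That start may lie inside the gene, and sequence further upstream was not searched, so nothing follows for other E2f1 promoter sequence. Mcm6, a helicase subunit, held 3 E2F matches, 2 of which overlapped, and 2 CCAAT matches. Cdk1, the mitotic kinase, held every motif, with 2 E2F, 2 TTTGAA and 3 CCAAT matches in 250 bases. Cdc20 and Ube2c, which work with the anaphase-promoting complex, each held 1 TTTGAA match, with 2 and 6 CCAAT matches in 250 bases. Of the 6 in Ube2c 2 overlapped, upstream of the printed bases.

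Across the 14 S-phase genes with a promoter in the RefSeq table, TTTNNCGC was found in the 250 bases before the start of 4, Cdc6, Mcm5, Mcm6 and Mcm7. The same letters were in 1 of 17 mitotic promoters, that of Cdk1, and in 4.28% of all 32851 promoters. TTTGAA was in 2 of 14 S-phase and 7 of 17 mitotic genes, against 16.0% of all promoters. CCAAT was in 9 of 14 and 15 of 17, against 33.8%. CCAAT and TTTGAA stood together in 2 of 14 S-phase genes and 7 of 17 mitotic genes, against 5.55% of all promoters. Where a gene had several annotated starts, any of them counted, whereas the shares of all promoters count each start apart. E2f2 held TTTGAA, and Mcm7 TTTNNCGC, before only 1 of its starts. E2f1 counts as a gene without a match from its annotated start alone. A match describes letters and shows no binding.

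Before the results, the labels need a limit. Cbx3 itself, measured on all 8 arrays by its brightest probe, had a level of 5.83 and 5.95 on WT floating 1 and 3, and -1.86, -2.76 and -1.75 on KO floating 1, 2 and 3. It was -2.03 on KO adherent 1. The array labelled WT floating 2 had -2.17, like the KO arrays, and the array labelled KO adherent 2 had 5.91, like the WT arrays. Each comparison of the members is therefore given with and without these 2 arrays, while medians and correlations over arrays use all 8. Immediate early genes, which respond to handling and growth factors, also split the arrays: their median deviation was -2.42 on WT floating 2 and -2.35 on KO floating 2, and between 0.32 and 1.11 on the other 6. The 75th percentile of processed signal was 616 to 865, with both of those arrays at the upper end (865 and 856), and 44.5% to 55.4% of spots were well above background. All 8 genes of a neural stem cell list were well above background on every array, whereas Gsx2 and Nkx2-1, markers of the ganglionic eminence, were on none. Of 5 microglia genes Aif1 and Cx3cr1 were on no array, while Csf1r was on 8, P2ry12 on 6 and Tmem119 on 5. Of 4 endothelial genes Cdh5 and Cldn5 were on none, while Kdr was on 8 and Pecam1 on 6.

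Nearly all the cell cycle genes were well measured. Of the 36 tested genes, 35 were well above background on every array. The exception was Kif20a, a motor of cytokinesis, which missed on KO floating 3. Ccne2, which encodes a cyclin of the G1/S transition, had no array well above background. Aurkb, the kinase of the chromosomal passenger complex, reached it only on the array labelled WT floating 2, and Cenpf, a kinetochore protein, only on that array and KO adherent 1. These 3 genes were not tested.

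The genes of a class moved together from array to array. Each gene's deviation from its own mean over 8 arrays was taken, and its median over a class gives that class's state on an array. For the 20 mitotic genes this median was 0.74 on the array labelled WT floating 2, 0.50 on WT floating 3 and -0.45 on WT floating 1. It was 0.13, -0.22 and -0.39 on KO floating 1, 2 and 3, -0.50 on KO adherent 1 and 0.06 on the array labelled KO adherent 2. The WT arrays held the highest values and, on WT floating 1, the second lowest.

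For the 16 S-phase genes the median was -0.07, 0.40 and 0.46 on WT floating 1, 2 and 3. It was -0.08, -0.15 and -0.21 on KO floating 1, 2 and 3, -0.43 on KO adherent 1 and 0.25 on the array labelled KO adherent 2. The 3 arrays with a high Cbx3 signal were not alike, and WT floating 1 lay just above KO floating 1.

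The array labelled WT floating 2 was the highest of 8 for 24 of 36 genes, 8 of S phase and 16 of mitosis. WT floating 3 was the highest for 10. KO adherent 1 was the lowest for 19, 9 of S phase and 10 of mitosis, and WT floating 1 was the lowest for 7, of which 6 were mitotic. On WT floating 2, WT floating 3 and KO floating 1 all 20 mitotic genes were above their own means, and on KO floating 3 none was. On WT floating 1 it was 1 of 20, and on KO adherent 1 it was 1 of 20. On both arrays that gene was Kif20a, whose mean was lowered by a level of -6.05 on KO floating 3.

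**Figure D1:**
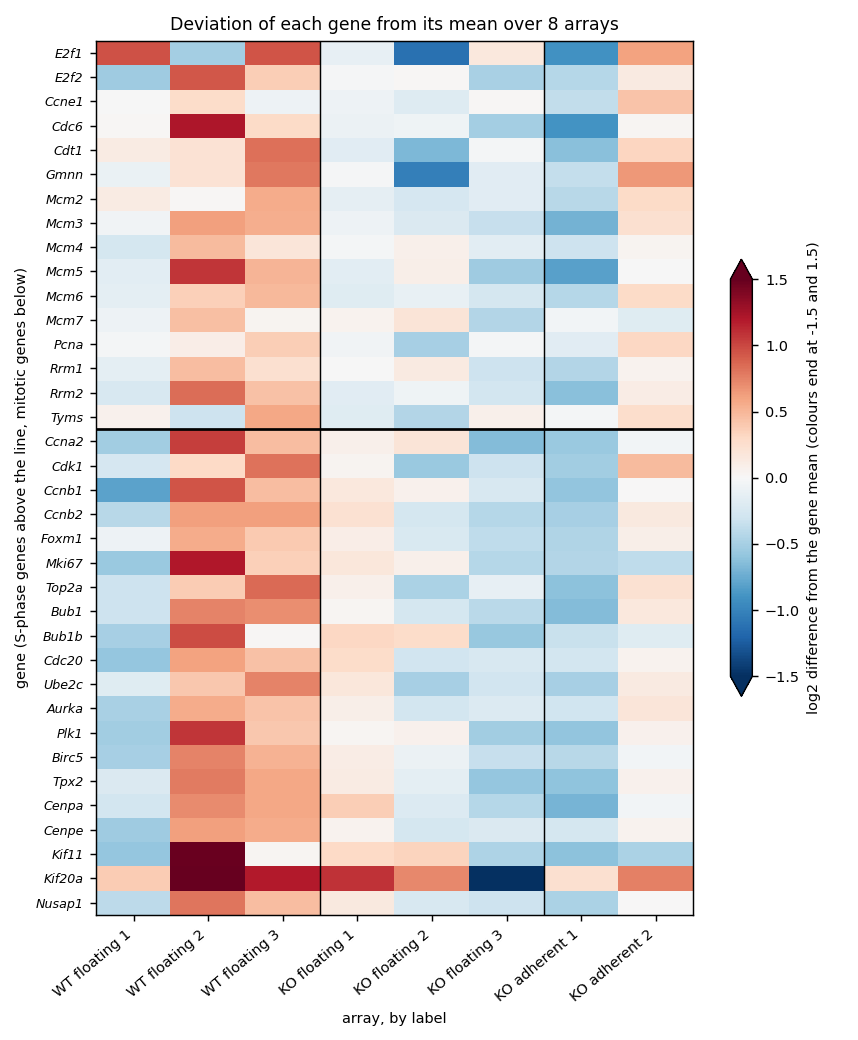
Each row is a tested gene, 16 of S phase above the line and 20 of mitosis below it, each column an array, and colour is the log2 difference from the gene's mean over 8 arrays. The columns of the arrays labelled WT floating 2 and WT floating 3 are mostly red, and the column of KO adherent 1 is mostly blue. On WT floating 1 the mitotic genes are blue except Kif20a (0.39), whose mean is lowered by its level of -6.05 on KO floating 3. Of the 16 S-phase genes 5 lie above 0 there, E2f1 the furthest (0.95).

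The classes did not always move by the same amount. On WT floating 1 the mitotic median was lower than the S-phase median by a difference of -0.39. It was higher by 0.34 on the array labelled WT floating 2 and by 0.22 on KO floating 1. On the other 5 arrays the difference lay between -0.19 and 0.04. Over the 8 arrays, which share the scaling to a percentile, the median correlation between genes was 0.87 for pairs of mitotic genes (0.25 to 0.99) and 0.62 for pairs of S-phase genes (-0.49 to 0.996). Between the classes it was 0.69. These correlations describe 8 arrays and were not tested.

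Within the S-phase class the genes fell apart in how they followed mitosis. E2f2, an activator E2F, followed the median of the mitotic genes with r = 0.95 over 8 arrays. Mcm4, a subunit of the replicative helicase, followed it with r = 0.93, and Rrm2, the regulated subunit of ribonucleotide reductase, with r = 0.93. E2f1 had r = 0.12 and Tyms, thymidylate synthase, had r = 0.10. The licensing genes Cdt1 and Gmnn lay between, with r = 0.62 and r = 0.60.

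**Figure D2:**
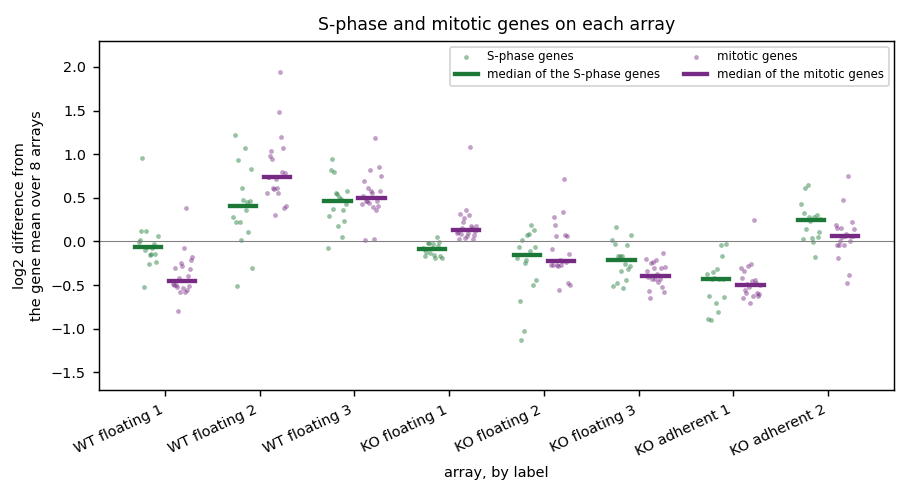
Points are the tested genes of each class on each array, as the log2 difference from the gene's mean over 8 arrays, and bars are the class medians (16 S-phase and 20 mitotic genes). The mitotic medians run from 0.74 on the array labelled WT floating 2 to -0.50 on KO adherent 1, and those of S phase from 0.46 on WT floating 3 to -0.43 on KO adherent 1; the point of Kif20a on KO floating 3 lies below the axis.

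The first comparison, KO against WT floating, asks what loss of Cbx3 does in floating spheres. With all 8 arrays as labelled, none of the 36 tested cell cycle genes passed the test, although all 36 had a lower mean in KO. The median difference was -0.42 for the 16 S-phase genes and -0.43 for the 20 mitotic genes, against -0.03 over 22705 features, of which 53.2% were lower. By limma's test with Benjamini-Hochberg adjustment over all features, 0 of 36 genes were called, beside 0.0044% of all features. At an unadjusted p below 0.05 it was also 0 of 36, beside 1.73% of features. The adjusted p was 0.814 to 0.847 over the S-phase genes and 0.814 to 0.906 over the mitotic genes.

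The 5 S-phase genes with the largest differences were E2f1, Cdc6, Gmnn, Cdt1 and Mcm5. E2f1, the transcription factor that opens S phase, had levels of 0.97, -0.49 and 0.96 on WT floating 1, 2 and 3, and -0.11, -1.11 and 0.18 on KO floating 1, 2 and 3. The array labelled WT floating 2 lay among the KO arrays, so the groups overlapped, and the difference was -0.82 (SE 0.58). Cdc6, which loads the helicase at origins, had -2.74, -1.54 and -2.47 in WT floating and -2.85, -2.82 and -3.27 in KO floating. All KO arrays were below all WT arrays, though KO floating 2 and WT floating 1 were close, and the difference was -0.73 (SE 0.38).

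Cdt1, the partner of Cdc6 in licensing, had 2.06, 2.16 and 2.76 in WT floating and 1.77, 1.26 and 1.91 in KO floating. These groups did not overlap either, with a difference of -0.68 (SE 0.33). Gmnn, which encodes geminin, the inhibitor of Cdt1, had -0.93, -0.61 and -0.035 in WT floating and -0.85, -1.85 and -0.998 in KO floating. KO floating 1 lay above WT floating 1, so the groups overlapped (difference -0.71, SE 0.40).

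Among the helicase subunits, Mcm5 had 0.24, 1.47 and 0.90 in WT floating and 0.24, 0.48 and -0.15 in KO floating, a difference of -0.68 (SE 0.37). Mcm3 had 2.90, 3.57 and 3.50 against 2.88, 2.74 and 2.62, and Mcm2 had 0.55, 0.44 and 0.98 against 0.30, 0.18 and 0.26. For Mcm3 and Mcm2 every KO array was below every WT array (differences of -0.58, SE 0.30, and -0.41, SE 0.24), with Mcm3 on KO floating 1 close to WT floating 1. Mcm6 had 4.13, 4.63 and 4.76 against 4.09, 4.16 and 4.01, with KO floating 2 just above WT floating 1 (-0.42, SE 0.25). Pcna, the sliding clamp of the fork, had 4.76, 4.89 and 5.15 against 4.74, 4.29 and 4.75, again without overlap (-0.34, SE 0.22). In all, 5 members did not overlap between the groups and were lower in KO, Mcm2, Mcm3, Pcna, Cdc6 and Cdt1, beside 4.58% of all features, and no mitotic gene was among them.

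The smallest differences in the class were those of Mcm4 (-0.17, SE 0.23) and Ccne1, cyclin E1 (-0.15, SE 0.24). Ccne1 had 0.60, 0.88 and 0.52 in WT floating and 0.53, 0.41 and 0.61 in KO floating, so the groups lay over each other. Mcm4 had 2.94, 3.68 and 3.38 against 3.17, 3.27 and 3.04, with WT floating 1 the lowest of the 6 arrays.

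The mitotic genes had wider spread within groups. Bub1, a kinase of the spindle checkpoint, had -1.23, -0.18 and -0.23 in WT floating and -0.89, -1.19 and -1.33 in KO floating (difference -0.59, SE 0.35). Tpx2, which activates Aurora A on the spindle, had 0.32, 1.31 and 1.11 against 0.65, 0.39 and -0.052 (-0.59, SE 0.34). In each, WT floating 2 and 3 were above all KO arrays and WT floating 1 was among the KO arrays.

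The same order held for Cdk1, with 0.075, 0.62 and 1.14 in WT floating and 0.36, -0.23 and 0.016 in KO floating (-0.56, SE 0.36). Ube2c, the ubiquitin-conjugating enzyme of the anaphase-promoting complex, had 1.40, 1.98 and 2.32 against 1.74, 1.08 and 1.28 (-0.53, SE 0.32). The smallest differences were those of Bub1b, a checkpoint kinase-like protein (-0.16, SE 0.41), and Ccnb1, cyclin B1 (-0.21, SE 0.44). Ccnb1 had 0.69, 2.43 and 1.96 in WT floating and 1.64, 1.55 and 1.25 in KO floating, so WT arrays lay on both sides of all KO arrays. Bub1b had -1.61, -0.13 and -1.09 against -0.80, -0.84 and -1.67, and the groups overlapped.

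Kif20a had the largest difference of all, -2.68 (SE 1.83), and it rested on 1 array. Its levels were 0.66, 2.21 and 1.46 in WT floating and 1.36, 0.99 and -6.05 in KO floating. On KO floating 3 the processed signal was 9.33, with a spot median of 43 over a background of 34 and no outlier flag, whereas it was 995 to 4012 on the other 7 arrays. Without KO floating 3 the difference was -0.27.

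**Figure D3:**
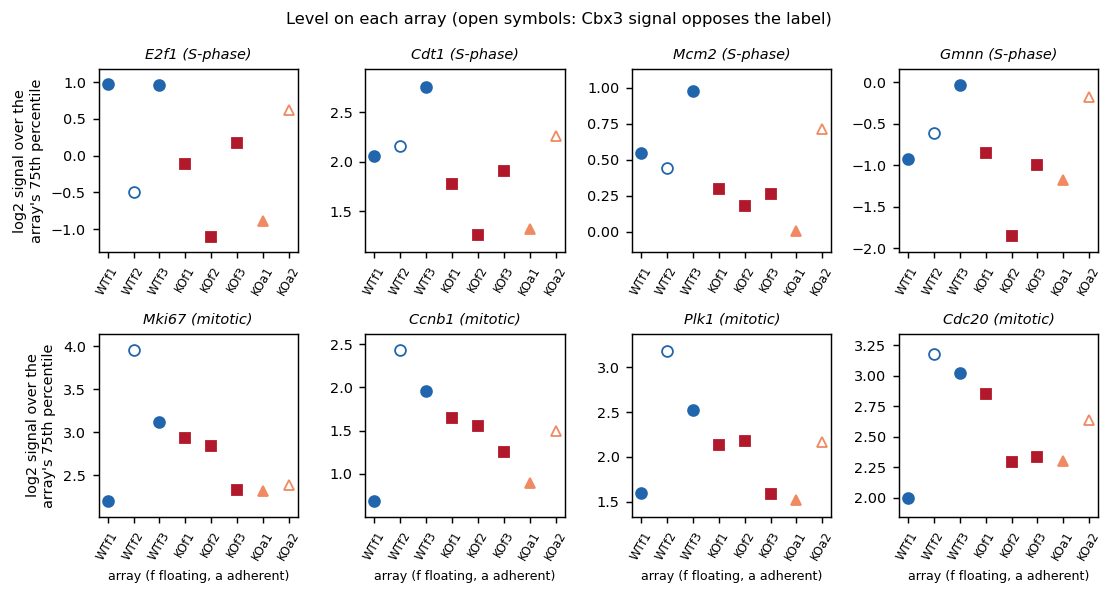
Levels of 4 S-phase genes (top) and 4 mitotic genes (bottom) on each array, as log2 signal over the array's 75th percentile; circles are WT floating, squares KO floating, triangles KO adherent, and open symbols the 2 arrays whose Cbx3 signal opposed the label. For the mitotic genes WT floating 1 is near the bottom and WT floating 3 near the top (Cdc20 at 2.001 and 3.02), while for E2f1 they coincide (0.97 and 0.96).

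Arrays of the same replicate number differed in direction for mitosis. Between KO floating 1 and WT floating 1, all 20 mitotic genes were higher in KO, with a median of 0.60, while the S-phase genes had a median of -0.02 (10 lower, 6 higher). With number 2 all 20 mitotic genes (median -0.88) and all 16 S-phase genes (-0.61) were lower in KO. With number 3, which is also slide row 2 of this comparison, 20 of 20 mitotic (-0.90) and 15 of 16 S-phase genes (-0.73) were lower. Within slide row 1, which holds numbers 1 and 2, the median was -0.29 for S phase (16 of 16 lower) and -0.17 for mitosis (18 of 20 lower). These are single arrays or pairs and carry no test.

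Leaving out 1 array moved the mitotic median most: it was -0.77 when WT floating 1 was left out, -0.16 when WT floating 2 was, and -0.27 when KO floating 3 was. The S-phase median ranged from -0.59 to -0.33. Without the 2 arrays whose Cbx3 signal opposed the label, 31 of 36 genes were lower, with a median of -0.37 for S phase and -0.16 for mitosis, and again 0 were called, although 131 features then were. E2f1 then differed by -1.31 (adjusted p = 0.128, limma). Within slide row 1, 19 of 20 mitotic genes were then higher in KO (median 0.42) and 10 of 16 S-phase genes were lower (median -0.09).

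Several genes had further probes. Of 12 further probes of tested genes, 6 were well above background on all arrays, for Birc5, Ccnb1, Mki67 and Ube2c. They correlated with the used probe over 8 arrays with r between 0.881 and 0.998. All 6 had a lower mean in KO floating than in WT floating, with differences from -0.57 to -0.21. The other 6 were well above background on 1 to 7 arrays, and not all followed the used probe. Those of Cdc6, Foxm1 and 1 of the 2 of Cdk1 had r of 0.90, 0.85 and 0.96, whereas that of Tpx2 had 0.29, the other of Cdk1 0.22 and that of Ccne1 8.27e-05. The Tpx2 probe differed by 0.0034 and the Ccne1 probe by 0.30 between KO and WT floating.

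The second comparison, KO adherent against KO floating, asks what the culture changes in the knockout. It shares the KO floating arrays with the first. None of 36 genes passed the test, in a comparison where 0% of all features did, and 0 of 36 had an unadjusted p below 0.05, beside 1.12% of features. The S-phase median was 0.06 (9 higher, 7 lower) and the mitotic median -0.05 (5 higher, 15 lower), against 0.06 over all features, of which 42.4% were lower. The adjusted p was 0.990 to 0.998 over both classes by limma.

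The 2 adherent arrays differed from each other on most genes. Gmnn had -1.18 and -0.18 on KO adherent 1 and 2, against -0.85, -1.85 and -0.998 on KO floating 1, 2 and 3, a difference of 0.55 (SE 0.44). Tyms, which makes thymidylate for DNA, had -2.08 and -1.79 against -2.23, -2.49 and -1.97 (0.30, SE 0.30). Pcna had 4.62 and 5.09 against 4.74, 4.29 and 4.75 (0.27, SE 0.25). In each of these the array labelled KO adherent 2 was the highest of the 5 and KO adherent 1 lay among the floating arrays.

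Cdc6 had -3.65 and -2.73 in KO adherent, below and above all 3 floating arrays (-0.22, SE 0.42). E2f1 had -0.89 and 0.63 against -0.11, -1.11 and 0.18 (0.22, SE 0.65). The smallest S-phase differences were those of Mcm3 (-0.03, SE 0.33) and E2f2 (0.02, SE 0.43). E2f2 had -1.46 and -0.89 in KO adherent and -1.05, -1.01 and -1.51 in KO floating, over the same range.

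Among mitotic genes, Kif11, the kinesin that separates spindle poles, had -2.92 and -2.77 in KO adherent and -1.99, -1.96 and -2.76 in KO floating. It was the only member without overlap between these groups, beside 4.78% of features in that direction, though KO floating 3 and KO adherent 2 differed little (difference -0.61, SE 0.57). Mki67, the proliferation antigen Ki-67, had 2.32 and 2.38 against 2.93, 2.84 and 2.33 (-0.35, SE 0.47). Ccnb1 had 0.90 and 1.496 against 1.64, 1.55 and 1.25 (-0.28, SE 0.49).

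Cenpa, the histone H3 variant of centromeres, had 0.20 and 0.86 against 1.26, 0.69 and 0.47 (-0.28, SE 0.39). Kif20a had 0.51 and 1.02, and its difference of 2.001 (SE 2.04) became -0.41 without KO floating 3. The smallest mitotic differences were those of Foxm1 (-0.01, SE 0.28) and Ccnb2, cyclin B2 (-0.02, SE 0.39). Foxm1, the factor of the mitotic wave, had -0.80 and -0.26 against -0.25, -0.58 and -0.73.

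The median here depended on which adherent array was used. Without KO adherent 1 the S-phase median was 0.45, and without KO adherent 2 it was -0.28, with mitotic medians of 0.20 and -0.35. Leaving out both arrays whose Cbx3 signal opposed the label gave the same medians of -0.28 and -0.35, with 31 of 36 genes lower. Within slide row 2, where KO floating 3 was the only floating array, the medians were 0.10 for S phase (14 of 16 higher) and 0.14 for mitosis (17 of 20 higher).

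The third comparison joined the 4 KO arrays with a low Cbx3 signal, of both cultures, against WT floating 1 and 3. It reuses arrays of the first, and culture and genotype cannot be told apart for KO adherent 1. Far more features passed here, 17.3% of 21506, with 8.34% lower in KO. Of 36 cell cycle genes 1 passed, E2f1, which fell. All 16 S-phase genes were lower in KO (median -0.44), and of 20 mitotic genes 17 were lower and 3 higher (median -0.23), against -0.07 over all features, of which 55.2% were lower.

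E2f1 was 0.97 and 0.96 on WT floating 1 and 3, a mean of 0.96 ± 0.01 (SD, n = 2). It was -0.11, -1.11, 0.18 and -0.89 on KO floating 1, 2 and 3 and KO adherent 1, a mean of -0.48 ± 0.61 (SD, n = 4). All KO arrays were below both WT arrays, and E2f1 fell by 1.44 on the log2 scale (SE 0.38, adjusted p = 0.0493 by limma). The array labelled KO adherent 2, left out here and with a high Cbx3 signal, had 0.63, between the sets. The array labelled WT floating 2, with a low Cbx3 signal, had -0.49, among the KO arrays.

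The call of E2f1 sat at the threshold. With the replicate number as a block the difference was -1.17 (adjusted p = 0.0677), and with slide row as a block the adjusted p was 0.0686. It was 0.0570 after quantile normalization and 0.156 without a filter on dim probes. Leaving out single arrays also ended it, with adjusted p of 0.193 or 0.224 when WT floating 1 or 3 was left out, 0.0861 when KO floating 1 was and 0.116 when KO adherent 1 was. With WT floating 1 or 3 left out the WT arm is a single array, assumed to vary like the KO arrays, and the difference stayed at -1.44 or -1.45. Over all settings the adjusted p ranged from 0.0238 to 0.224 and the difference from -1.66 to -1.17.

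Other S-phase genes came near the threshold without passing it. Mcm2 was 0.55 and 0.98 on the WT arrays and 0.30, 0.18, 0.26 and 0.0056 on the KO arrays, without overlap (difference -0.58, SE 0.17, adjusted p = 0.0650). Cdt1 was 2.06 and 2.76 against 1.77, 1.26, 1.91 and 1.31, without overlap (-0.85, SE 0.28, adjusted p = 0.0823, limma). With E2f1 these were the 3 genes with an unadjusted p below 0.05, beside 37.8% of all features and 19.6% in that direction.

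Gmnn was -0.93 and -0.035 against -0.85, -1.85, -0.998 and -1.18 (-0.74, SE 0.36), and Mcm3 was 2.90 and 3.50 against 2.88, 2.74, 2.62 and 2.25 (-0.58, SE 0.25). In all, 6 genes did not overlap and were lower in KO, E2f1, Cdt1, Mcm2, Mcm3, Cdc6 and Pcna. That is 6 of 16 S-phase genes and 0 of 20 mitotic genes, beside 29.3% of all features. At the other end, Mcm7 (-0.04, SE 0.20) and Mcm4 (-0.07, SE 0.19) had the smallest differences. Mcm7 was 2.71 and 2.83 on the WT arrays, within the KO values of 2.84, 2.98, 2.34 and 2.74. The helicase subunits are built in equal numbers into 1 ring, and here their differences ran from -0.58 for Mcm2 and Mcm3 to -0.04 for Mcm7. Their SE were 0.17 to 0.31, none was called, and whether the subunits differed from each other was not tested.

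No mitotic gene had an unadjusted p below 0.05. Cdk1 was 0.075 and 1.14 on the WT arrays and 0.36, -0.23, 0.016 and -0.20 on the KO arrays (-0.62, SE 0.33, adjusted p = 0.209, limma). Ube2c was 1.40 and 2.32 against 1.74, 1.08, 1.28 and 1.07 (-0.56, SE 0.31). Top2a, the topoisomerase that untangles sister chromatids, was -0.040 and 1.13 against 0.35, -0.20, 0.15 and -0.34 (-0.56, SE 0.36).

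In each of these WT floating 3 was above all KO arrays and WT floating 1 among them. Bub1 was -1.23 and -0.23 against -0.89, -1.19, -1.33 and -1.57 (-0.52, SE 0.32). Kif20a differed by -1.85 (SE 2.11), or -0.10 without KO floating 3. The 3 genes with a higher mean in KO were Kif11 (0.17, SE 0.35), Bub1b (0.16, SE 0.31) and Ccnb1 (0.01, SE 0.39). For Ccnb1 the WT arrays, at 0.69 and 1.96, enclosed the KO arrays, at 1.64, 1.55, 1.25 and 0.90. Mki67 had 2.66 ± 0.65 (SD, n = 2) in WT (2.20 and 3.12) and 2.60 ± 0.33 (SD, n = 4) in KO (2.93, 2.84, 2.33 and 2.32), a difference of -0.05 (SE 0.32).

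The mitotic median in this comparison changed sign with a single array. It was 0.22 without WT floating 3 and -0.70 without WT floating 1, while the S-phase median was -0.18 and -0.72. The number of features called fell to 102 when WT floating 3 was left out, 186 when WT floating 1 was, 458 when KO adherent 1 was and 695 when KO floating 1 was. Within slide row 2, where KO floating 3 and KO adherent 1 stand against WT floating 3, all 16 S-phase genes (median -0.84) and all 20 mitotic genes (-0.94) were lower in KO.

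**Figure D4:**
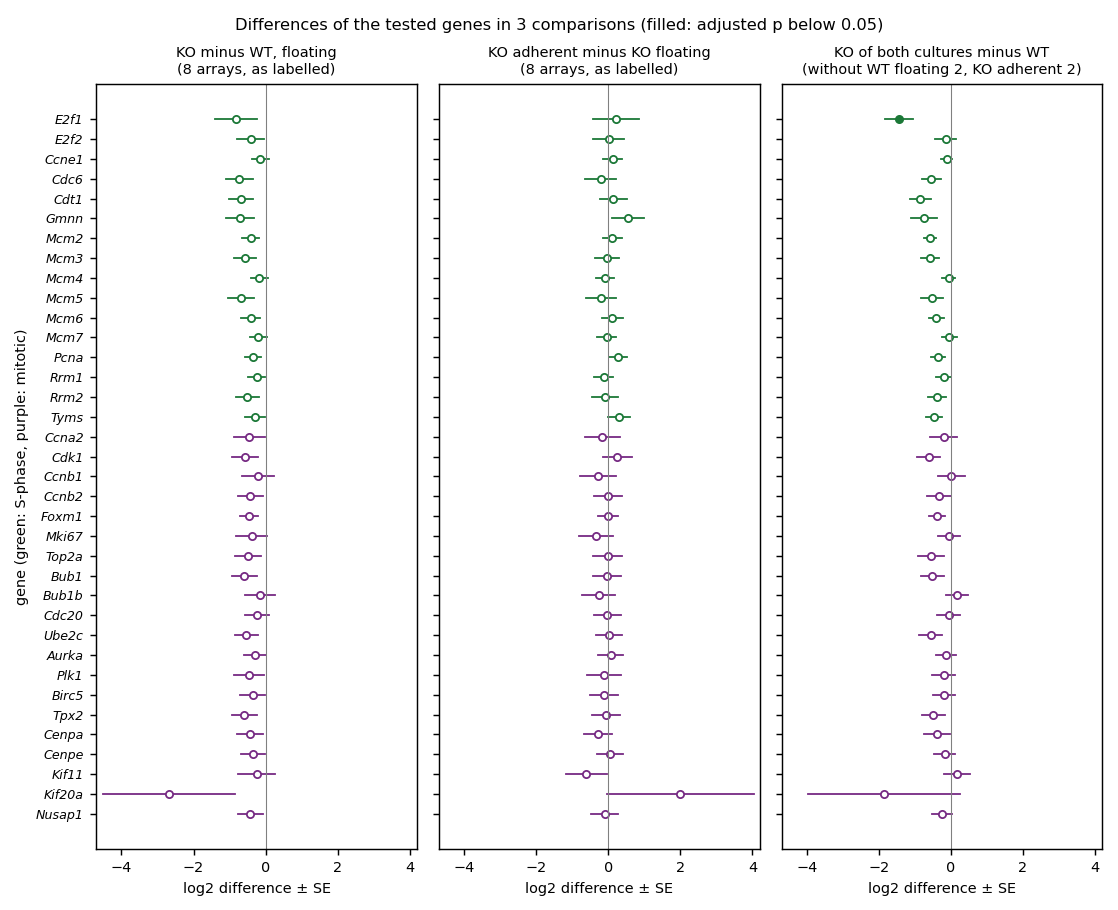
Log2 difference with its standard error (limma) for each tested gene in 3 comparisons, S-phase genes in green and mitotic genes in purple, with filled symbols for an adjusted p below 0.05. The filled symbol is E2f1 in the right panel (-1.44, SE 0.38), and all 36 symbols of the left panel lie left of 0.

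Other genes of the same machinery, outside the 39, were counted in the third comparison too. Of 36 tested genes of the replication fork and origins, 31 were lower in KO and 5 fell: Wdhd1 (-1.74, SE 0.42), Gins2 (-0.85, SE 0.22), Gins3 (-0.71, SE 0.18), Pold1 (-0.67, SE 0.15) and Rfc4 (-0.51, SE 0.13). Wdhd1 ties the helicase to DNA polymerase alpha, the Gins genes encode parts of the helicase, Pold1 the catalytic subunit of polymerase delta, and Rfc4 a subunit of the clamp loader. Of 11 nucleotide supply genes 8 were lower and Impdh2, of guanine nucleotide synthesis, fell (-0.67, SE 0.17). Their list medians were -0.27 and -0.35.

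On the mitotic side 22 of 27 kinetochore and checkpoint genes were lower (median -0.20) and 2 fell, Zwint (-1.60, SE 0.24) and Cenpw (-0.90, SE 0.21), both of the kinetochore. Of 27 genes of the spindle, condensin and cytokinesis 24 were lower (median -0.24) and Ckap2, a spindle protein, fell (-0.91, SE 0.21). Of 17 regulators of the Rb, E2F and DREAM group 10 were higher, 7 lower and 0 passed, and of 13 checkpoint and p53 genes 10 were lower and 0 passed. No gene of these lists rose. Their shares of calls, at most 5 of 36, stand beside 8.34% of all features called lower.

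In the first comparison no gene of these lists was called. Lower in KO floating were 34 of 36 fork genes (median -0.34), 10 of 12 nucleotide genes (-0.28), 24 of 27 kinetochore genes (-0.33) and 27 of 28 spindle genes (-0.39). The Rb, E2F and DREAM regulators had 11 of 17 lower (median -0.10). In KO adherent against KO floating 0 passed as well, with medians from -0.06 to 0.22.

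Markers of other cell states moved with the third comparison. The summed linear level of 4 astrocyte genes was 44.7 and 47.3 on WT floating 1 and 3, and 157 to 291 on the 4 KO arrays in it. Of these genes S100b and Aldoc were well above background on all 8 arrays, Gfap on 3 and Aqp4 on 6. Of the 4 genes 3 passed the test as higher in KO and 1, Gfap, as lower. Gfap met the filter for testing only through the WT arrays, where it was high, so its call lends no support. Only 3 of the 4 genes had an array well above background in each group. Gfap went against the sum, with -1.86 and -2.42 on the WT arrays and -3.72 to -5.18 on the KO arrays. The Aqp4 probe in the sum overlapped, with -3.85 and -3.47 on the WT arrays and -3.98 to -3.01 on the KO arrays. The test of Aqp4 used its other probe. The neuron list had sums of 22.8 and 23.4 on the WT arrays and 29.9 to 36.3 on the KO arrays. Map2 and Snap25 were its brightest genes. Map2 overlapped (3.53 and 3.48 on the WT arrays, 3.28 to 4.08 on the KO arrays), and Snap25 did not (3.41 and 3.38 against 3.59 to 4.35). Dcx was well above background on 5 arrays and Syt1 on 3. The neural stem cell list had sums of 501 and 507 against 649 to 975. Of the 8 stem cell genes 3 passed as higher and 2 as lower, and Nes (5.26 and 5.06 against 4.03 to 4.73) and Vim (7.82 and 7.84 against 6.98 to 7.36) were lower on the KO arrays. The array labelled WT floating 2 had 209, 29.2 and 839 for the same lists, and the array labelled KO adherent 2 had 107, 23.2 and 515. Their part in the values of the cell cycle genes was not tested.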

How the data were processed

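RNA of 8 mouse neurosphere samples was hybridised to single-colour Agilent arrays. The deposited scanner files hold spot intensity on a linear scale, background-subtracted by Agilent Feature Extraction 11.0.1.1 per the file headers (9.1.3.1 per the submitters' processing notes). The flags for outlier, saturated and well-above-background spots are other values in the deposited files, also set by that software. The authors' value table held the same intensity: 99.2% of its values lay within 0.01% of the processed signal on each array. No spot was saturated.

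From these, log2 processed signal was computed relative to the array's 75th percentile (55681 non-control probes). Outlier spots were dropped, and 200 probes then lacked a value on some array. Tested probes were well above background on all arrays of a group or more. Accessions without versions were matched to symbols in a RefSeq table of GRCm38.p6, which named 27235 probes, and each unmatched probe was kept as a feature. The two-sided tests used lmFit, contrasts and eBayes of limma 3.58.1 (R 4.3.3) on 22705 features with all 8 arrays and 21506 without the 2 whose Cbx3 signal opposed the label, with a Benjamini-Hochberg threshold of 0.05 over all features. The fits were tested on simulated data. The number of arrays limits the precision.

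The members, gene lists, tests and the fit without 2 arrays were chosen with earlier results of these data known, so no p over a list is given. Values on every array are given for up to 5 members of a class with the largest and up to 2 with the smallest difference in a comparison, and for members past the threshold. Members whose groups did not overlap were added after their values were seen. Of other lists, members past the threshold are named. Replicates are separate embryonic brains per the labels.

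For floating arrays, deviations from the group mean correlated between equal numbers (r over features of 0.104, 0.590 and 0.334 for numbers 1, 2 and 3), which by the rule of 0.1 counts as pairing, with the replicate block as an alternative. Unequal numbers did so too (0.346 between WT 1 and KO 3, 0.206 between WT 3 and KO 1), so the pairing is uncertain. For adherent arrays these correlations lay between -0.630 and -0.0548, but in a group of 2 deviations mirror each other. Further settings were scaling to the median of detected probes, quantile normalization, normexp correction with an offset of 50 (on the median spot signal), the authors' table, no filter or a stricter one, the mean of a gene's probes, robust eBayes with an intensity trend, only the groups compared, slide row as a block and leaving out each array.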

Additional observations from a re-analysis of the deposited data

Results flagged for a closer look

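Among the 4 KO arrays of both cultures with a low Cbx3 signal, 3 of 36 tested genes had an array whose gap to its nearest neighbour passed Dixon's critical value as a share of the range of the 4, where chance alone gives such a gap in about 1 of 20 groups. Cdc20, the activator of the anaphase-promoting complex, had a level of 2.85 on KO floating 1, with the nearest array at 2.34 (ratio 0.924). Cenpe, a kinetochore motor, had 2.08 on the same array, with the nearest at 1.81 (ratio 0.834). Kif20a had -6.05 on KO floating 3, with the nearest at 0.51 (ratio 0.886), from the dim spot described above.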

How the results depend on the processing

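In KO against WT floating the count of features called was 1, and it was 0 with normexp correction, no filter, probes above background on every array, only the groups compared, trend and robust eBayes, the replicate block or slide row as a block, 0 whichever array was left out, and 131 without the 2 arrays whose Cbx3 signal opposed the label, where Cbx3 differed by -8.02 (adjusted p = 0.0215, limma). In KO adherent against KO floating it was 0, but 7 after quantile normalization and 0 to 8 over the single arrays left out (8 without WT floating 2, 1 without KO adherent 1). The S-phase median there was -0.28 without the 2 arrays and -0.28 to 0.45 over single arrays. With slide row as a block that median was -0.04, Tyms was -0.066, Cdc6 0.039 and E2f1 -0.29, and without the 2 arrays E2f1 was -0.54. Over single arrays left out E2f1 ranged from -0.54 to 0.97, Kif20a from -0.41 to 3.30, Cdc6 from -0.67 to 0.24, Ccnb1 from -0.58 to 0.015 and Cenpa from -0.61 to 0.052. In the joined comparison the count of features was 3718, or 179 without a filter and 102 to 5243 over single arrays. The count of members was 1, and 0 with quantile normalization, no filter, the replicate block or slide row as a block, and 0 to 1 over single arrays. Its S-phase median ranged from -0.72 to -0.18, its mitotic median from -0.70 to 0.22 and Top2a from -1.14 to 0.028. The median over all features there was -0.07, and -0.23 without a filter. The replicate block changed no other call of a member. In KO against WT floating both class medians were below 0 in all settings, as was the S-phase median of the joined comparison. Causes were not tested. Dim signal limits Aurkb, Ccne2, Cenpf and Kif20a on KO floating 3.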
